A study of Mus musculus with 9 samples.

Results

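This report describes 40 genes of the PI3K, AKT and mTOR pathway in germinal center (GC) B cells from mice that kept or lost Foxo1. The genes were listed by name and role, with earlier results of these data known. Each was read from its brightest probe set with a single gene symbol. Of the 40 genes, 39 had such a probe set, against 18193 genes in the whole series. Rps6kb1 was not analysed here. Of the 39, 34 passed the filter on dim probe sets and were tested among 10331 genes, and 5 lay below it.

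GC B cells proliferate in lymphoid follicles after meeting antigen and mutate the genes of their antibodies there. They were sorted from spleen as B220-high, PNA-high, CD95-high cells and profiled on 9 Affymetrix arrays, 3 for each of 3 genotypes. All mice carried Cg1-Cre, a recombinase expressed from the C gamma 1 locus and therefore active in activated B cells, so controls and mutants alike had the Cre. The WT mice were FOXO1+/+, with 0 floxed alleles. The HET mice were FOXO1f/+, with 1 floxed allele, and the KO mice were FOXO1f/f, with 2. Mice were 10 weeks old, were injected with sheep red blood cells on days 0 and 5, and gave their spleens on day 12. The labels give 1 animal per array, while the design text speaks of pooled spleen cells, so the p-values measure the spread between these 3 samples a group. In sorted bulk cells, fewer cells of a type and less RNA per cell cannot be told apart.

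Phosphoinositide 3-kinase (PI3K) is recruited by receptors and adaptors and makes the membrane lipid PIP3, which brings PDK1 and AKT to the membrane. AKT then phosphorylates FOXO1, which leaves the nucleus, and inhibits the TSC complex, which lets Rheb activate mTOR complex 1 (mTORC1) and protein synthesis. FOXO factors are known in other tissues to regulate genes of the pathway that controls them, among them insulin receptor, IRS2, RICTOR and sestrin genes. In B cells, PI3K activity carries signals of the antigen receptor.

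Foxo1, the targeted gene, had MAS5 signals of 5432, 5300 and 5616 on the WT arrays. It stood at 3633, 3581 and 3479 on the HET arrays and at 983, 1392 and 727 on the KO arrays. The KO mean was 19.0% of the WT mean, and the signals followed the number of floxed alleles with no overlap between genotypes. Arrays of a genotype correlated at 0.984 to 0.990 over log2 signals, and arrays of different genotypes at 0.974 to 0.990. GC markers were measured throughout: Bcl6, S1pr2, Mef2b, Rgs13, Gcsam and Fas lay above the array median on every array. Of 8 measured T cell markers, Cd3d, Cd3g and Cd4 lay below it on every array, Cd3e, Cd5, Cd8a and Thy1 on some arrays, and Lat on none.

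Of the 34 tested pathway genes, 7 changed between KO and WT (20.6%), against 11.9% of all genes tested. The genes that rose were Pik3cg, a PI3K catalytic subunit, and Inpp4b, a lipid phosphatase. The genes that fell were the insulin receptor gene Insr, the kinase genes Pdpk1 and Akt1, the pseudokinase gene Trib2 and Eif4ebp1, a translation repressor controlled by mTORC1. The 2 rises stand against 6.1% of all genes that rose and the 5 falls against 5.83% that fell. The median log2 change was 0.01 over the 34 genes, 19 positive and 15 negative, and 0.01 over all genes. The KO arrays lay apart from the WT arrays in 12 of 34 genes (35.3%), against 29.7% of all genes tested. In 6 they lay above (16.2% of all genes) and in 6 below (13.5%).

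**Figure D1:**
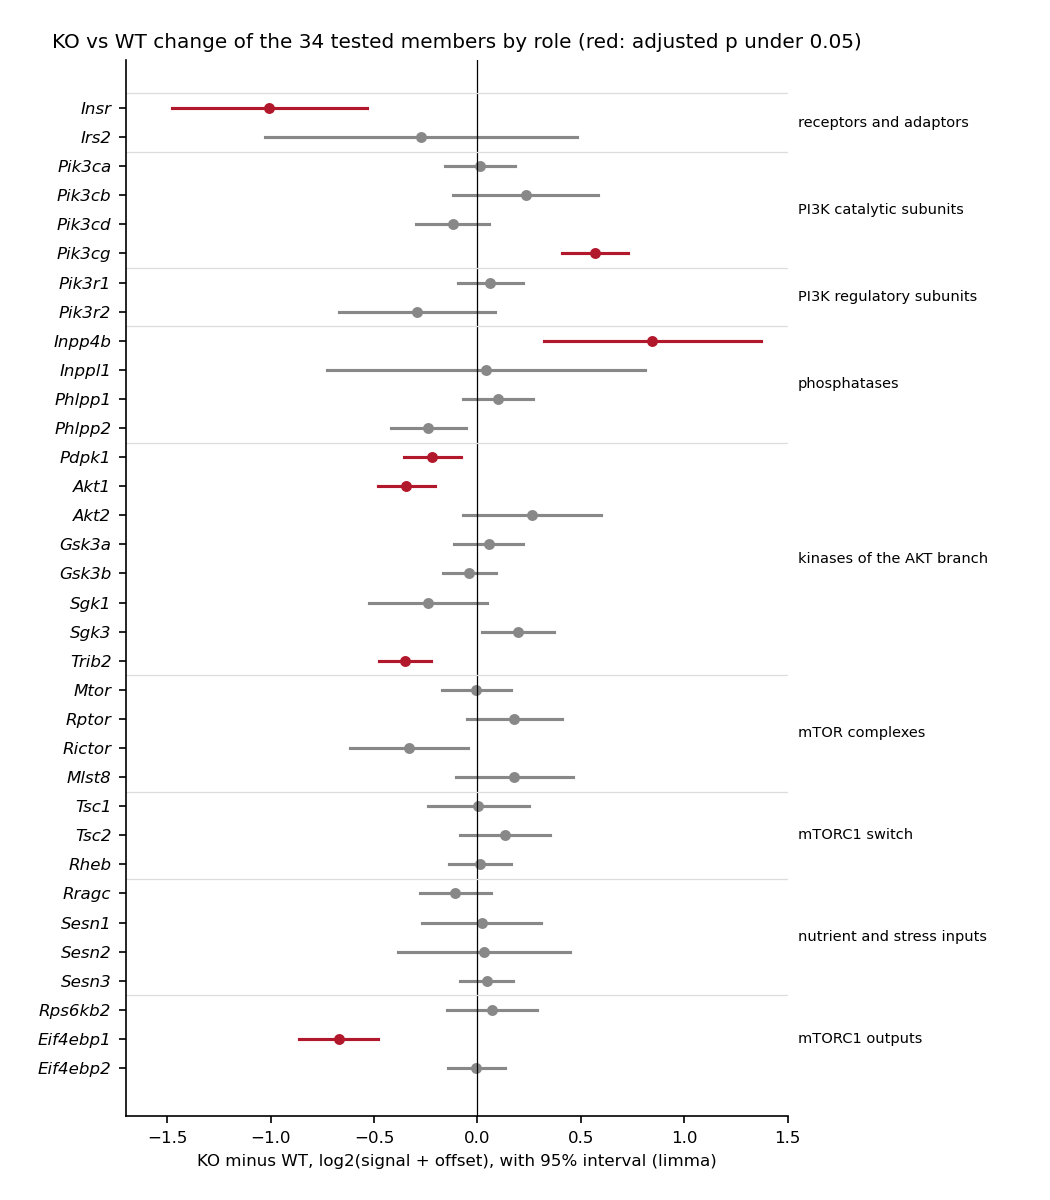
Change between KO and WT for the 34 tested genes, grouped by role: the x axis gives KO minus WT in log2(signal + offset), points are limma estimates over 3 arrays a group and lines their 95% intervals. The 7 genes past the test are red: Insr, Pdpk1, Akt1, Trib2 and Eif4ebp1 lie left of 0 and Pik3cg and Inpp4b right of it, while the mTOR complex, switch and nutrient groups hold no red gene.

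The promoters of Akt1 and Pik3cg are shown because they are the changed genes whose RefSeq promoter window holds the FOXO element GTAAACA. Forkhead factors of the FOXO group are known to bind this element. Windows of 300 bases (250 before to 50 after a start site) were given for 34 of the listed genes, 5 of them changed ones. No window was given for the changed genes Insr and Eif4ebp1, so their promoters were not searched. The 250 bases before the start are printed 5′ to 3′ on the gene's strand, with the element in capitals. Build and sequence are those of RefSeq GRCm38.p6. Akt1 lies on the minus strand with its window at chr12:112674885-112675134, and the capitals TGTTTAC are the element on the opposite strand, 161 bases before the start. Pik3cg lies on the minus strand at chr12:32208471-32208720, and its element starts 92 bases before the start.
Akt1: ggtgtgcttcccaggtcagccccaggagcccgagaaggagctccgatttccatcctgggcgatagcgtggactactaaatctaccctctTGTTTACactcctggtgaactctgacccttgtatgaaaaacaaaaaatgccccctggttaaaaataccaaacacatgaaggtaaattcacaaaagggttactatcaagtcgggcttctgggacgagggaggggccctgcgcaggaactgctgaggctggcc
Pik3cg: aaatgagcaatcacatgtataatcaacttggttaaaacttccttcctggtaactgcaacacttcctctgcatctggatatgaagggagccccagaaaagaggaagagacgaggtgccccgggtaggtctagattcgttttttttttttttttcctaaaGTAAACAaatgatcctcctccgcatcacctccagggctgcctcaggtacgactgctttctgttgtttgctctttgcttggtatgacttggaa

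The element, searched on both strands, was in the windows of 3 of 34 listed genes (Akt1, Pik3cg and Sesn1) and of 4.05% of 27018 genes in the table. Its core TAAACA, which lies within every GTAAACA, was in 4 of 34 (Akt2 in addition) and in 15.1% of all genes. The insulin response element CAAAACA was in 2 of 34 (Irs1 and Irs2) and in 7.2% of all genes. Of the 2 changed genes with GTAAACA, Akt1 fell and Pik3cg rose. A second Akt1 window, at another start site, held none of the 3 motifs. A second Pik3cg window, also at another start site, held the core TAAACA but not GTAAACA.

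Among receptors and adaptors, Insr fell. The insulin receptor is a tyrosine kinase that recruits PI3K through insulin receptor substrate proteins. Its signals were 161.7, 214.2 and 195.2 in WT, 151.1, 175.4 and 150.6 in HET, and 100.4, 122.1 and 65.7 in KO. Every KO array lay below every WT and HET array, and the KO mean was 50.5% of the WT mean. The log2 change was −1.01 (SE 0.22, 95% interval −1.48 to −0.53, adjusted p = 0.00986). The remaining Insr probe sets lay below the array median on every array. Irs2, which encodes an adaptor of the receptor, was near the array median, at 27.0 to 59.5 over all arrays, with a log2 difference of −0.27 (adjusted p = 0.683). Igf1r and Irs1, the related receptor and adaptor, lay below the median on all arrays, at 1.3 to 14.4 and 0.9 to 14.1.

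Of the catalytic subunits, Pik3cg rose while Pik3ca, Pik3cb and Pik3cd did not pass. Pik3cg encodes p110 gamma, the subunit known for signaling below G protein-coupled receptors in leukocytes. Its signals were 1988, 1861 and 1900 in WT, 2235, 2308 and 2405 in HET, and 3177, 2671 and 2714 in KO. All HET arrays lay above all WT arrays, and all KO arrays above all HET arrays. The log2 change between KO and WT was 0.57 (SE 0.07, adjusted p = 0.000311), and the KO mean was 149% of the WT mean. Its dimmer probe set gave 0.48 (adjusted p = 0.013). Pik3cd, p110 delta, the main subunit of antigen receptor signaling in B cells, ranged from 2017 to 2505 with a log2 difference of −0.12 (95% interval −0.29 to 0.06). Pik3ca stood at 0.01 (−0.16 to 0.18) and Pik3cb at 0.23 (−0.12 to 0.58).

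The regulatory subunits did not pass. Pik3r2 (p85 beta) had signals of 118.8, 133.2 and 156.0 in WT, 126.5, 120.9 and 110.3 in HET, and 122.1, 101.1 and 107.4 in KO, a log2 difference of −0.29 (SE 0.17, adjusted p = 0.318). The KO and WT arrays overlapped. Pik3r1, which encodes the p85 alpha subunit, stood at 0.06 (95% interval −0.09 to 0.22). Pik3r5, the p101 partner of p110 gamma, lay below the filter, with 34.3, 39.9 and 19.3 in WT, 23.6, 37.0 and 42.6 in HET, and 64.3, 52.5 and 42.4 in KO. It was below the array median on all WT arrays, and the KO mean was at least 1.2-fold higher than the WT mean taken at the array median.

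Of the phosphatases, Inpp4b rose in the fit reported here and was close to the threshold. INPP4B removes a phosphate from PI(3,4)P2, a lipid that helps activate AKT. Its signals were 62.8, 82.0 and 53.8 in WT, 71.1, 67.3 and 81.7 in HET, and 95.3, 111.0 and 158.6 in KO. The KO arrays lay above all others, although they also differed most among themselves. The log2 change was 0.85 (SE 0.24, adjusted p = 0.0401), and 11 of 22 alternative settings ended the call, with adjusted p up to 0.134. Leaving out WT replicate 1 or 3, HET replicate 1 or 2, or KO replicate 2 or 3 was enough. Phlpp2, which dephosphorylates AKT, had a log2 difference of −0.24 (SE 0.08, adjusted p = 0.0864), with 3 KO arrays (852.4 to 927.5) below the WT arrays (1001 to 1136). Phlpp1 stood at 0.10 (95% interval −0.07 to 0.27) and the 5-phosphatase gene Inppl1 at 0.04 (−0.73 to 0.81).

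Among the kinases of the AKT branch, Pdpk1, Akt1 and the pseudokinase gene Trib2 fell, and the other 5 did not pass. Akt1 encodes the AKT isoform found in most tissues. Its signals were 2797, 2990 and 2841 in WT, 2782, 2850 and 2790 in HET, and 2439, 2247 and 2120 in KO. The HET and WT arrays overlapped and the KO arrays lay below both. The log2 change was −0.34 (SE 0.06, adjusted p = 0.0038), and the KO mean was 78.9% of the WT mean. The dimmer kept probe sets gave −0.53 (adjusted p = 0.078) and −0.19 (adjusted p = 0.751). With the mean of all kept probe sets in place of the brightest the adjusted p was 0.0723.

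Pdpk1 encodes PDK1, which phosphorylates the activation loop of AKT. Its signals were 2795, 2861 and 2947 in WT, 2943, 2892 and 2981 in HET, and 2259, 2586 and 2563 in KO. The KO arrays lay below all others, by a small margin: the log2 change was −0.22 (SE 0.06, adjusted p = 0.0428), and the KO mean was 86.1% of the WT mean. The call was lost in 13 of 22 alternative settings, with adjusted p up to 0.337, among them leaving out KO replicate 1 or any 1 WT or HET array.

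Trib2 encodes a tribbles pseudokinase, a scaffold known to bind AKT and to act on FOXO proteins. Its signals were 3313, 3306 and 3451 in WT, 3464, 3629 and 3454 in HET, and 2800, 2543 and 2562 in KO. The HET arrays lay just above the WT arrays and the KO arrays below both. The log2 change was −0.35 (SE 0.06, adjusted p = 0.0018), and the KO mean was 78.5% of the WT mean. The probe set carries the suffix of probes shared by related transcripts, and the dimmer kept probe set, whose probes are not shared, gave −0.29 (adjusted p = 0.369 in the fit without shared probe sets).

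Of the kinases that did not pass, Akt2 was at 0.26 (95% interval −0.07 to 0.60) and Sgk3 at 0.20 (0.02 to 0.37, adjusted p = 0.142), each with 3 KO arrays above the WT arrays. Akt2 encodes a further AKT isoform and Sgk3 a related kinase. Sgk1, another related kinase, stood at −0.24 (−0.53 to 0.05). Gsk3a and Gsk3b, kinases that AKT inhibits, stood at 0.05 (−0.11 to 0.22) and −0.04 (−0.17 to 0.09).

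**Figure D2:**
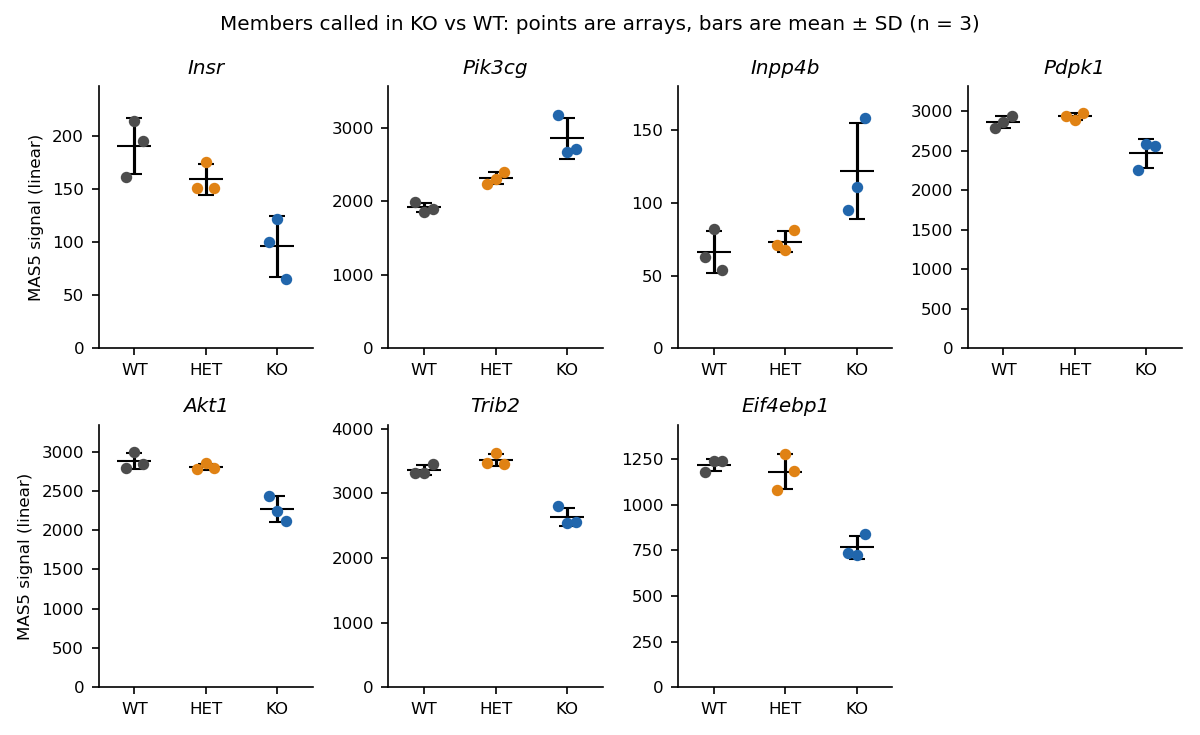
MAS5 signals (y axis, linear, from 0) of the 7 genes that changed between KO and WT, by genotype: points are arrays and bars the mean ± SD of 3 arrays. Pik3cg steps up from WT through HET to KO, while in Pdpk1, Akt1, Trib2 and Eif4ebp1 the HET arrays stay near the WT arrays and the KO arrays lie below them.

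None of the 4 tested genes of the mTOR complexes passed in KO vs WT. Mtor, the shared kinase, ranged from 1093 to 1268 over the 9 arrays, with a KO minus WT difference of 0.00 on the log2 scale (95% interval −0.17 to 0.16). Rptor, the scaffold of mTORC1, stood at 0.18 (−0.05 to 0.41) and Mlst8, a subunit of both complexes, at 0.18 (−0.10 to 0.46). Rictor, the scaffold of mTORC2, the complex that phosphorylates AKT at its hydrophobic motif, had the smallest adjusted p of the group. Its signals were 1076, 1105 and 1182 in WT, 869, 918 and 898 in HET, and 754, 1159 and 810 in KO. Each HET array was lower than each WT array, and KO replicate 2 stood apart from the other KO arrays, within the WT range. That array also had the highest Foxo1 signal of the KO arrays (1392). The HET arrays, with Foxo1 at 3479 to 3633, had lower Rictor signals than that array. The part of Foxo1 in the Rictor value was not tested. The log2 difference between KO and WT was −0.33 (SE 0.13, adjusted p = 0.13). It was −0.52 (adjusted p = 0.003) without KO replicate 2 and −0.45 (adjusted p = 0.0297) with each array centred on its median. Those were the only 2 of 22 alternative settings in which Rictor passed. In the other 20 it did not pass, with a difference as small as −0.17 and adjusted p up to 0.471. Deptor, an mTOR inhibitor, lay below the median on all arrays, at 11.2 to 35.4.

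The mTORC1 switch did not pass either. Tsc2, the GTPase-activating subunit of the TSC complex, had signals of 375.9, 389.8 and 356.2 in WT, 385.3, 387.0 and 409.8 in HET, and 430.0, 393.0 and 409.1 in KO, a log2 difference of 0.13 (SE 0.10, adjusted p = 0.439). The KO arrays lay above the WT arrays by a narrow margin. Tsc1, its partner, stood at 0.00 (95% interval −0.24 to 0.25), and Rheb, the GTPase they restrain, at 0.01 (−0.14 to 0.16).

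The nutrient and stress inputs did not pass by their brightest probe sets. Rragc, a Rag GTPase that brings mTORC1 to the lysosome, had signals of 2590, 2574 and 2758 in WT, 2820, 2545 and 2550 in HET, and 2291, 2317 and 2775 in KO. Its log2 difference was −0.11 (SE 0.08, adjusted p = 0.441), with overlap between KO and WT. Rragd, a paralog of Rragc, was dim, with 31.7, 44.7 and 58.3 in WT, 31.4, 37.6 and 29.5 in HET, and 26.2, 22.8 and 19.5 in KO, all KO arrays below the array median. The sestrin genes, whose proteins restrain mTORC1 under stress or low leucine, stood at 0.02 for Sesn1 (95% interval −0.27 to 0.31), 0.03 for Sesn2 (−0.38 to 0.45) and 0.05 for Sesn3 (−0.08 to 0.17).

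The probe sets of Sesn3 did not give the same answer; this gene was chosen for closer description after its values were seen. Its brightest probe set had 2796, 2841 and 2723 in WT, 2906, 2958 and 2840 in HET, and 2680, 2993 and 2962 in KO. Its dimmer probe set had 420.8, 399.7 and 432.3 in WT, 401.3, 457.0 and 353.5 in HET, and 234.8, 219.3 and 271.2 in KO. By the dimmer probe set the KO arrays lay below all others, with a log2 change of −0.79 (adjusted p = 0.00225 in a fit over 19479 probe sets). With the mean of the probe sets, Sesn3 fell by 0.37 on the log2 scale (adjusted p = 0.00879). The place of each probe set in the transcript was not analysed here. Over the 34 tested genes, 43 further probe sets were kept in 18 genes, and 3 of these were past the threshold (6.98%), against 8.19% of all 19479 probe sets. They were those of Pik3cg (higher), Sesn3 and Eif4ebp1 (lower).

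**Figure D3:**
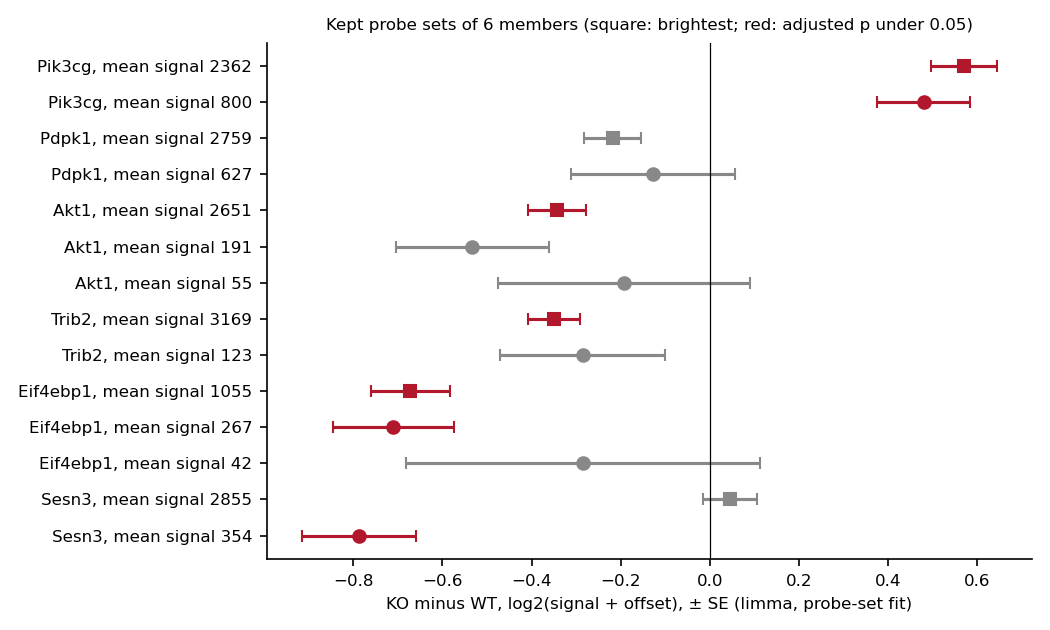
Change between KO and WT (x axis, log2(signal + offset), ± SE) for every kept probe set of 6 genes, fitted over 19479 probe sets; the square is each gene's brightest probe set and red marks an adjusted p under 0.05. Probe sets of Pik3cg, Akt1, Trib2 and Eif4ebp1 point the same way within each gene, those of Sesn3 stand at 0.05 and −0.79, and Pdpk1 is not red in this fit.

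Among the mTORC1 outputs, Eif4ebp1 fell. Its protein, 4E-BP1, binds the cap-binding factor eIF4E and blocks translation until mTORC1 phosphorylates it. Signals were 1181, 1237 and 1240 in WT, 1082, 1275 and 1182 in HET, and 736.5, 722.1 and 838.8 in KO. The HET arrays surrounded the WT arrays and the KO arrays lay well below both. The log2 change was −0.67 (SE 0.09, adjusted p = 0.000336), and the KO mean was 62.8% of the WT mean. The probe set carries a suffix of shared probes. In the fit without shared-suffix probe sets the log2 change was −0.71 (adjusted p = 0.0045). A second probe set gave −0.71 (adjusted p = 0.00616), and the dimmest kept one, near the array median, −0.29 (adjusted p = 0.736). The paralog Eif4ebp2 stood at −0.01 (95% interval −0.14 to 0.13) and Rps6kb2, which encodes an S6 kinase, at 0.07 (−0.15 to 0.29).

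Over the 27 genes that did not pass in KO vs WT, log2 differences ran from −0.33 to 0.26, and the 95% interval lay within ±0.5 for 20 of them. The changes that passed were between 0.22 and 1.01 in size, so all but Insr, Inpp4b, Eif4ebp1 and Pik3cg were below 0.5.

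With 1 floxed allele, 0 of 34 genes passed against WT in limma, with adjusted p of 0.919 or above, against 0.00968% of all genes tested. Foxo1 itself, at 65.4% of WT in HET with no overlap (log2 difference −0.61), did not pass this comparison either (adjusted p = 0.919). An unadjusted limma p under 0.05 was reached by 2 of the 34 genes, Pik3cg (log2 difference 0.27) and Rictor (−0.32). Over all 10331 genes tested, 432 reached it. The HET arrays lay apart from the WT arrays in 5 genes (14.7%), against 9.82% of all genes tested (4.95% above and 4.88% below). These were Pik3cg, Akt2 and Trib2, with HET above, and Rictor and Pik3r1, with HET below.

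The KO arrays were also set against the HET arrays, a comparison that shares the KO arrays with KO vs WT. Here 6 of 34 genes changed, against 8.99% of all genes tested: 1 was higher (4.56% of all genes) and 5 lower (4.43%). Pik3cg was higher in KO by 0.30 (adjusted p = 0.0249), next to 0.57 against WT. Lower in KO were Eif4ebp1 by −0.62 (adjusted p = 0.000706), Trib2 by −0.42 (adjusted p = 0.000641) and Akt1 by −0.31 (adjusted p = 0.00969). Pdpk1 was lower by −0.25 (adjusted p = 0.027) and Insr by −0.76 (adjusted p = 0.0497). The Insr call was lost in 13 of 22 alternative settings, that of Pdpk1 in 7 and that of Pik3cg in 6. Inpp4b stood at 0.69 (adjusted p = 0.106). The arrays lay apart in 11 genes (32.4%), 4 with KO above and 7 with KO below, against 27.7% of all genes tested (14.5% above and 13.1% below).

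Whether 1 floxed allele gave an intermediate level was tested as the distance of HET from halfway between WT and KO on the log2 scale. This departure passed in 1 of 34 genes, Trib2, against 0.997% of all genes tested, with 0.639% above the midpoint and 0.358% below it. HET lay above the midpoint by 0.24 (SE 0.05, adjusted p = 0.0415), and 13 of 21 alternative settings ended that call, among them leaving out any 1 array except KO replicate 1. Pik3cg lay near its midpoint, at −0.01 (95% interval −0.15 to 0.13). Eif4ebp1 lay above its midpoint by 0.29 (0.12 to 0.45, adjusted p = 0.131). Foxo1, the targeted gene, also lay above its log2 midpoint, by 0.61 (0.31 to 0.92, adjusted p = 0.0688).

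With earlier results of these data known, a further 63 genes of the pathway were listed from general knowledge, of which 52 were tested. Of these, 8 changed between KO and WT (15.4%, against 11.9% of all genes tested), 7 higher and 1 lower. The 7 rises stand against 6.1% of all genes that rose and the 1 fall against 5.83% that fell. In that list, 2 of 3 tested adaptors and receptors, 2 of 7 phosphatases, 1 of 17 genes of the amino acid branch and 2 of 7 genes downstream of mTORC1 rose. Of 5 tested genes of the AKT substrate, tribbles and SGK group, 1 fell. Of 7 genes of the TSC partner, LKB1 and AMPK group, 4 other PI3K genes and 2 mTORC2 partners, none passed in limma, and none had an unadjusted p under 0.05.

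Pik3ap1 encodes BCAP, an adaptor that links the antigen receptor to PI3K. It had 1928, 2153 and 2204 in WT, 2080, 2242 and 2247 in HET, and 2730, 2911 and 2748 in KO, and rose by 0.42 (SE 0.07, adjusted p = 0.00169). The KO arrays lay above all others. Grb2, a general adaptor, had 6882, 6993 and 6630 in WT, 7313, 7148 and 7035 in HET, and 7616, 7626 and 7671 in KO, and rose by 0.16 (adjusted p = 0.0304). The Grb2 call was lost in 11 of 21 alternative settings.

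The phosphatase genes Inpp4a and Inpp5d rose. Inpp4a, the paralog of Inpp4b, had 2744, 2730 and 2930 in WT, 3143, 3055 and 3178 in HET, and 3480, 4944 and 3736 in KO, a log2 change of 0.52 (SE 0.10, adjusted p = 0.0057). Its 3 genotypes formed separate steps. Inpp5d encodes SHIP1, which converts PIP3 to PI(3,4)P2. Its signals were 4831, 4931 and 5018 in WT, 5173, 4908 and 4918 in HET, and 5871, 5265 and 6030 in KO, a log2 change of 0.21 (adjusted p = 0.0303) whose call was lost in 8 of 21 settings.

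Fnip2 encodes a folliculin partner that acts on Rag GTPases and AMPK. Its signals were 114.3, 186.3 and 110.7 in WT, 125.5, 134.3 and 236.9 in HET, and 525.3, 315.5 and 309.9 in KO. Its log2 change of 1.47 (SE 0.28, adjusted p = 0.00474) exceeded that of any of the 34 genes. Pdcd4, a translation inhibitor that S6 kinase marks for degradation, had 3796, 3375 and 3369 in WT, 4064, 4070 and 3797 in HET, and 4709, 4463 and 4455 in KO, and rose by 0.37 (adjusted p = 0.00176). Ulk1, an autophagy kinase that mTORC1 inhibits, had 465.2, 441.4 and 438.9 in WT, 492.0, 537.3 and 526.5 in HET, and 585.5, 552.7 and 664.9 in KO. It rose by 0.42 (adjusted p = 0.0163), with the call lost in 5 of 22 settings. In Ulk1 the HET arrays lay between the WT and KO arrays with no overlap. Trib3, a tribbles gene known as a stress-response gene, had 104.3, 81.3 and 104.6 in WT, 112.8, 79.3 and 94.3 in HET, and 49.6, 57.9 and 43.8 in KO. Its log2 change was −0.91 (SE 0.22, adjusted p = 0.0187), a call lost in 3 of 21 settings.

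**Figure D4:**
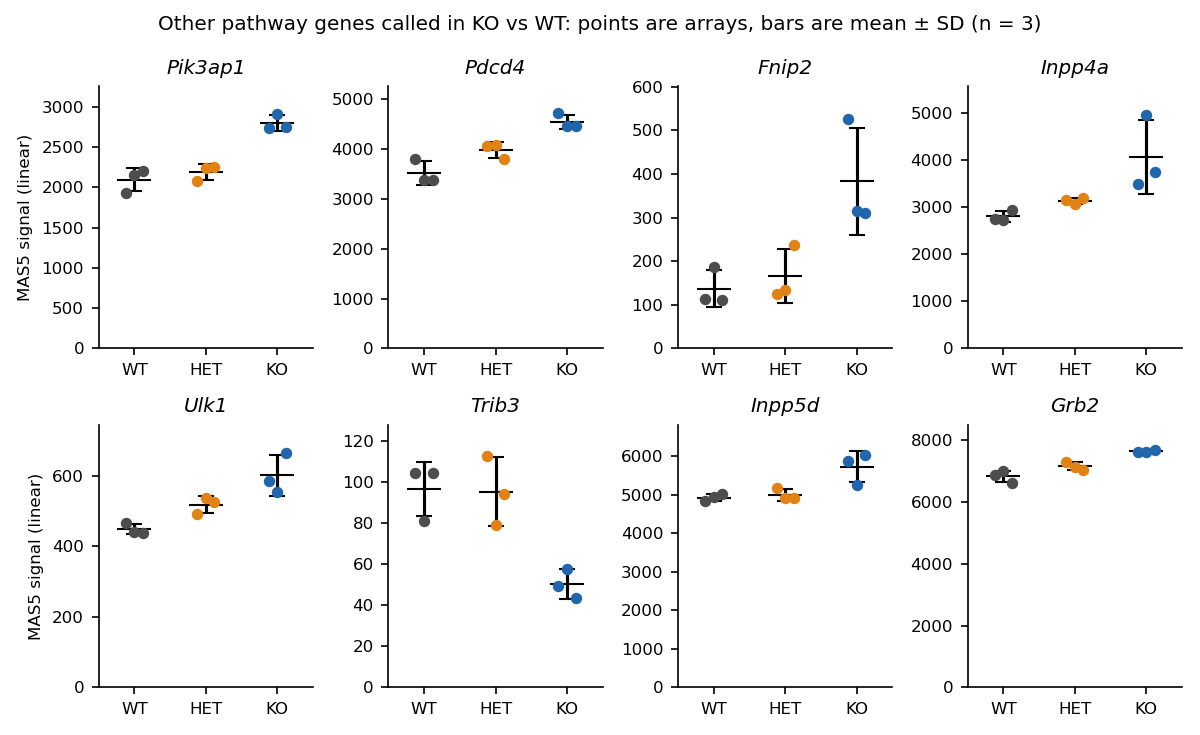
MAS5 signals (y axis, linear, from 0) of the 8 further pathway genes that changed between KO and WT, by genotype: points are arrays and bars the mean ± SD of 3 arrays. In 7 genes the KO arrays lie above the WT arrays, from 0.16 for Grb2 to 1.47 for Fnip2 on the log2 scale, and in Trib3 they lie below.

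Markers of other cells and B cell states moved with these genes. The summed linear signal of 10 myeloid markers was 1309 to 2144 in WT, 1671 to 2651 in HET and 3223 to 4131 in KO. Of 8 tested myeloid markers 5 rose, while Itgam and Cd14 were below the median of every array. The sum of 6 marginal zone B cell markers was 7547 to 7592 in WT, 7514 to 8233 in HET and 11801 to 14111 in KO, and 6 of 6 rose. The sum of 6 plasma cell markers was 20319 to 21652 in WT, 20997 to 22479 in HET and 25402 to 27796 in KO, and 4 of 6 rose. Slpi (mean 3940 in WT and 8493 in KO) rose most on the linear scale. Irf4 (3145 and 4794), Prdm1 (204 and 379) and Sdc1 (94.2 and 192) also rose. Jchain (10958 and 10538) and Xbp1 (2681 and 2597) did not pass. The sum of 3 measured naive and follicular markers was 2145 to 2491 in WT, 2628 to 2717 in HET and 1416 to 1557 in KO, and 1 of 2 tested fell. That gene was Fcer2a (mean 2112 in WT and 1241 in KO), which made up most of the sum. Klf2 (188 and 201) did not pass, and Ccr7 was below the median of every array. The sum of 6 measured GC markers was 26899 to 29516 in WT, 27434 to 28184 in HET and 25647 to 26681 in KO, with 2 falls and 1 rise. Gcsam (mean 3770 in WT and 1465 in KO) and Rgs13 (4902 and 4113) fell. Fas (3139 and 3859) rose, and Bcl6, S1pr2 and Mef2b did not pass. The sum of 5 stromal markers, 4 of them below the median of every array, was 226 to 261 in WT, 254 to 279 in HET and 273 to 348 in KO. For each of these 6 lists the exact two-sided permutation p of KO vs WT was 0.1, the smallest that 3 arrays against 3 allow. The sums of B lineage, dendritic, T cell, NK cell, and erythroid and platelet markers overlapped between KO and WT, with exact permutation p from 0.4 to 1. The part of these markers in the rises of Pik3cg, Inpp4b and the other pathway genes and in the falls was not tested.

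The scaling of the arrays also differed with genotype. The median signal was 47.4 to 48.0 on the KO arrays and 42.9 to 45.0 on the WT and HET arrays. Centring each array on its median lowered the KO vs WT change of every gene, with a shift of −0.12 in the median of all genes. The split of all calls moved from 630 higher and 602 lower to 397 higher and 1683 lower. Of the 34 genes, 8 then passed (23.5%), against 20.1% of all genes (3.84% higher and 16.3% lower): Pik3cg was higher, and Insr, Pdpk1, Akt1, Trib2, Eif4ebp1, Phlpp2 and Rictor were lower. Inpp4b no longer passed under this scaling (adjusted p = 0.05005) or under quantile scaling (adjusted p = 0.0706), and Pdpk1 no longer passed under quantile scaling (adjusted p = 0.0523).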

How the data were processed

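The authors deposited linear-scale intensity values (signals), 1 for each probe set of an array, made with MAS5, per the submitters' processing notes. Its version is not given in the sources used here. The method scales each array to a trimmed mean. RNA was amplified with a NuGEN kit, per the labels' protocols. Of 45101 probe sets, 34945 had 1 gene symbol in the platform annotation, and 34741 of these matched RefSeq GRCm38.p6 genes by Entrez identifier, with 0 symbols changed.

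Signals were analysed as log2(signal + 2.09), the offset being the 10th percentile of all signals, which understates changes of dim genes. Probe sets reaching the array median on at least 3 of 9 arrays were kept (19479), and each gene was read from its kept probe set of highest mean log2 signal. limma 3.58.1 (lmFit, eBayes with trend) in R 4.3.3 was fitted over all 9 arrays with 10331 genes, and adjusted p-values (Benjamini-Hochberg, two-sided, threshold 0.05) cover all of them. Every adjusted p in the text is from limma. The number of arrays limits the precision. The model was tested on simulated data.

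The genes and lists were chosen with earlier results of these data known. Of the 40 listed genes, values on every array are given for those past the test, those whose KO and WT arrays lie apart with a log2 change of at least 0.3, and the gene with the smallest KO vs WT adjusted p of each role. Of the other pathway genes they are given for the 8 with the smallest adjusted p. The arrays of Pik3r5, Rragd and Sesn3 are given in addition, chosen after their values were seen. Alternatives covered the offset, scaling, filter, probe set choice, model and each array left out.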

Additional observations from a re-analysis of the deposited data

How the results depend on the processing

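No paired analysis was possible because the replicate numbers follow the order of deposition and the labels tie no arrays across genotypes. Of the KO vs WT calls, Insr, Pik3cg and Eif4ebp1 passed in all 22 alternatives, Akt1 and Trib2 in 21, Inpp4b in 11 and Pdpk1 in 9. Centring on array medians called 2080 genes against 1232. Without shared-suffix probe sets 5 other pathway genes passed in place of 8. In KO vs HET, 3 of the 34 genes passed with eBayes without trend or with only the compared genotypes fitted, in place of 6. The HET departure was called in 0 of the 34 genes with no filter, the mean of probe sets, no shared-suffix probe sets, eBayes without trend or a block on Xist level, and in 31 of all genes with eBayes without trend. Xist was high on WT replicates 2 and 3, HET replicate 3 and KO replicates 1 and 2, and not on the other arrays. In HET vs WT, 3 of all genes passed with robust eBayes, array weights or only those genotypes fitted. The HET minus WT difference of Eif4ebp1 ran from −0.108 to 0.0108 with 1 array left out, positive without HET replicate 1, and a dim Insr probe set below the filter gave 0.24 in KO minus WT; the cause was not tested.

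Leaving out 1 array gave, in KO vs WT, 768 to 1183 genes (770 without WT replicate 2, 768 without WT replicate 3), 5 to 7 of the 34 and 4 to 8 other pathway genes (5 without any 1 WT array, 4 without KO replicate 3). It gave 1 to 3 genes and 0 of the 34 in HET vs WT, where 3 came without HET replicate 2 and 2 without WT replicate 3 or KO replicate 3. In KO vs HET it gave 543 to 895 genes (543 without HET replicate 2, 606 without HET replicate 3) and 3 to 6 of the 34 (3 without HET replicate 1, HET replicate 2 or KO replicate 1). For the HET departure it gave 31 to 109 genes (50 without WT replicate 2; 45, 31 and 37 without HET replicates 1, 2 and 3) and 0 to 1 of the 34. Signals near or below the array median limit what can be said of Irs2 and the 5 untested genes.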
